A study of Mus musculus with 4 samples.

Results

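Ribosome biogenesis genes and Myc formed a set of 38 genes, chosen by symbol from the deposited gene table: Myc itself, 3 subunits of RNA polymerase I and 34 nucleolar proteins that process pre-rRNA or assemble the 2 ribosomal subunits. All 38 were found among the 35798 named genes, and all 38 passed the filter on low counts, which left 13822 genes. They were compared in Ly49H+ NK cells of 2 kinds of donor mice, wild-type donors with the CD45.1 allele and TNFR2 KO donors with the CD45.2 allele. Both kinds of cells had been transferred together into NSG mice, which are severely immunodeficient hosts without T, B or NK cells of their own but with myeloid cells, and every host received murine cytomegalovirus (MCMV). On D3.5 after infection the cells were sorted from spleen by Ly49H, the NK receptor that binds an MCMV protein, and by CD45 allele, and their poly-A RNA was sequenced in bulk. There were 2 libraries for each genotype, each from pooled spleens of 3 hosts, and the same-numbered wild-type and TNFR2 KO libraries came from the same pool. No uninfected host was compared, and the CD45 allele and the sort gate differed along with genotype. Donor age and sex were not used here.

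Making ribosomes is among the costliest tasks of a dividing cell. RNA polymerase I transcribes one long pre-rRNA in the nucleolus, small nucleolar ribonucleoproteins (snoRNPs) guide its chemical modification, and successive protein complexes fold and cut it into the rRNAs of the small (40S) and large (60S) subunits. Myc is a transcription factor that binds DNA as a pair with Max, often at the E-box CACGTG, and many genes of this pathway are among its known targets. In lymphocytes, Myc and ribosome production are known to rise as the cells enlarge and divide after activation.

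Levels are given in CPM (a gene's counts as a share of the library's total), scaled between libraries with TMM factors, and a log2-fold change is TNFR2 KO over wild-type, so that negative values are lower in TNFR2 KO. Calls used edgeR's quasi-likelihood test, fitted across the 13822 genes with p-values adjusted over all of them (Benjamini-Hochberg), and a gene was called when the adjusted p was under 0.05. For one gene taken alone, the smallest two-sided p of an exact permutation test with 2 libraries in each group is 0.333. The libraries held 32713256 to 39543650 counts, and the lowest member value in any library was 14.1 CPM, so no member rested on few reads. As a check of the labels, Tnfrsf1b, which encodes TNFR2, measured 265 and 269 CPM in wild-type libraries against 55.1 and 58.6 CPM in TNFR2 KO libraries. Markers of other cell types also differed between these libraries, and their part in the Tnfrsf1b values was not tested.

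Expression of the set was lower in the TNFR2 KO libraries, by a modest margin. Of the 38 members, 30 were lower at an adjusted p under 0.05, and over all genes tested 26.2% were lower by the same call. No member was higher, against 24.2% of all genes, while 1 member, Rrp1b, was higher at an unadjusted p under 0.05. DESeq2 gave 24 members lower and 0 higher, and by its calls 14.9% of all genes were lower and 12.8% higher. The median log2-fold change was -0.26 over the members and -0.003 over all genes, and the members ran from -0.50 for Myc to 0.10 for Rrp1b. Both TNFR2 KO libraries lay below both wild-type libraries for 31 members, as they did for 37.7% of all genes. For 6 members the groups overlapped, and for Rrp1b both TNFR2 KO libraries lay above. Summed over the members, expression was 3447 and 3441 CPM in wild-type and 2930.35 and 2896 CPM in TNFR2 KO. In the same TNFR2 KO libraries NK cell markers were higher and macrophage, neutrophil, mast cell and erythroid markers lower, with values given with the marker lists, and their part in the members' values was not tested. In bulk RNA, fewer cells of a type and less RNA per cell cannot be told apart.

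The log2-fold changes were small. An adjusted p under 0.05 with an absolute log2-fold change over 1 was met by 0 members and by 13.3% of all genes, and DESeq2 also gave 0. No member was past a log2-fold change of 1 in size even with an unadjusted p under 0.05. A log2-fold change below -0.5 was reached by Myc alone, and by 15.8% of all genes. Replicate libraries differed little, with a biological coefficient of variation of 3.33%.

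**Figure D1:**
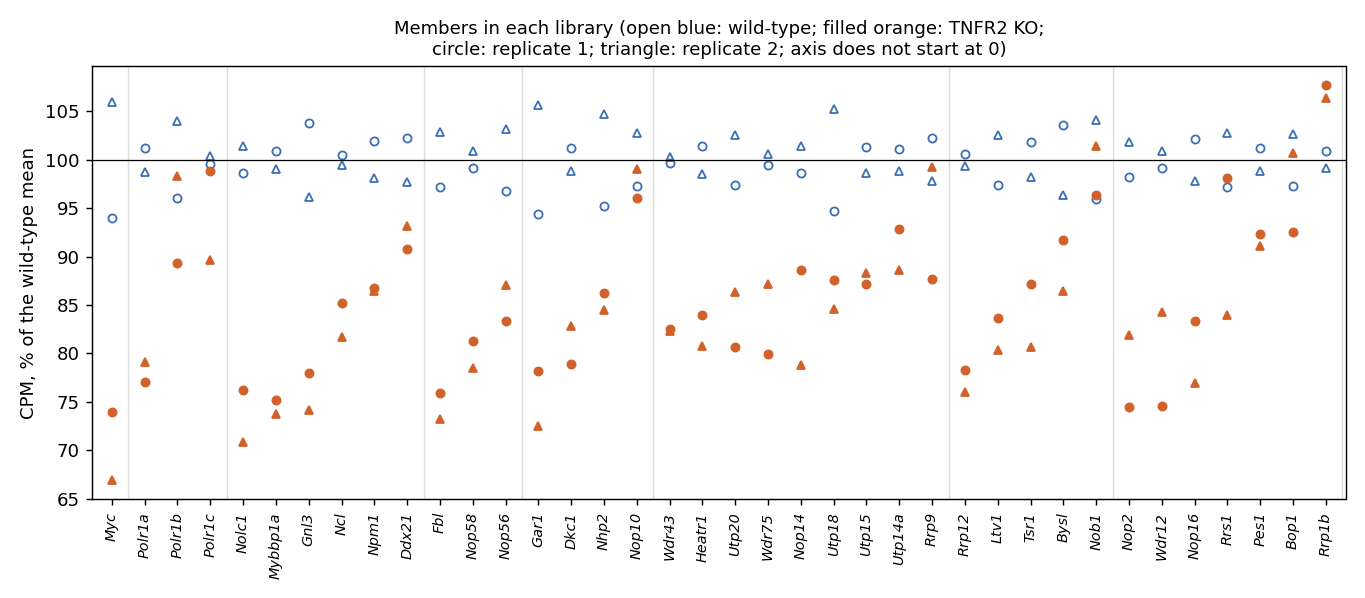
CPM of each member in each of the 4 libraries, as a percentage of the mean of the 2 wild-type libraries, with members ordered by role and vertical lines between roles. The TNFR2 KO points (filled) lie under the wild-type points (open) for 31 of 38 members, and above them only for Rrp1b.

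Myc showed the largest log2-fold change of the set. Its level was 40.6 and 45.8 CPM in wild-type and 31.9 and 28.9 CPM in TNFR2 KO. Both TNFR2 KO libraries were lower than either wild-type library, and the wild-type pair lay farther apart, relative to its mean, than in any other member. The log2-fold change was -0.50 (SE 0.07, n = 2 against 2), a level that fell by 29.4%, with an adjusted p of 5.92e-05 in edgeR's test. Myc lies at chr15:61985391-61990374 on the plus strand of GRCm38 in the GENCODE annotation, and none of the 31-base stretches of its transcripts occurs in another gene.

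Of the RNA polymerase I subunits, 1 of 3 passed the test. Polr1a encodes the largest, catalytic subunit, and its level was 51.3 and 50.0 CPM in wild-type and 39.1 and 40.1 CPM in TNFR2 KO. It was lower in both TNFR2 KO libraries, with a log2-fold change of -0.36 (SE 0.05) and an adjusted p of 4.58e-05 in edgeR's test. Polr1b encodes the second-largest subunit and was at 18.1 and 19.6 CPM in wild-type and 16.9 and 18.6 CPM in TNFR2 KO. Its groups overlapped, and the log2-fold change was -0.09 (95% interval -0.27 to 0.08). Polr1c, a subunit shared with RNA polymerase III, was at 26.8 and 27.0 CPM in wild-type and 26.6 and 24.1 CPM in TNFR2 KO. Its libraries did not overlap, but TNFR2 KO replicate 1 lay just under wild-type, and the log2-fold change of -0.08 (95% interval -0.22 to 0.06) did not pass.

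All 6 nucleolar proteins with several roles were lower in TNFR2 KO. Nolc1 is a chaperone of snoRNPs that moves between nucleolus and Cajal bodies, and its level was 93.0 and 95.6 CPM in wild-type and 71.9 and 66.9 CPM in TNFR2 KO. Its log2-fold change of -0.44 (SE 0.04) was second to that of Myc. Mybbp1a, a nucleolar Myb-binding protein, was at 163 and 159.7 CPM in wild-type and 121 and 119 CPM in TNFR2 KO, with a log2-fold change of -0.43 (SE 0.03) and, with 2.08e-07 in edgeR's test, the smallest adjusted p of the set. Gnl3, the nucleolar GTP-binding protein nucleostemin, was at 38.3 and 35.5 CPM in wild-type and 28.7 and 27.3 CPM in TNFR2 KO, with a log2-fold change of -0.39. Expression of these 3 genes fell by 26.3%, 25.5% and 23.9%, and in each both TNFR2 KO libraries were well apart from the wild-type pair.

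The other 3 nucleolar proteins had smaller log2-fold changes. Ncl encodes nucleolin, which coats nascent pre-rRNA, and was at 795 and 787 CPM in wild-type and 674 and 646 CPM in TNFR2 KO, with a log2-fold change of -0.26 (SE 0.03). Npm1 encodes nucleophosmin, a histone and ribosome chaperone, and was at 509 and 491 CPM in wild-type and 434 and 432 CPM in TNFR2 KO, with a log2-fold change of -0.21. Ddx21, an RNA helicase, was at 249.6 and 238 CPM in wild-type and 222 and 227 CPM in TNFR2 KO, and its log2-fold change of -0.12 (SE 0.03, adjusted p 0.00576 in edgeR's test) was the smallest called in this group. In all of them both TNFR2 KO libraries were below both wild-type libraries. For Npm1, 29.4% of the 31-base stretches of its transcripts also occur in other genes, pseudogenes among them, so its counts are less certain.

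The box C/D snoRNP places 2′-O-methyl groups on rRNA, and its 3 measured core proteins were all lower. Fbl encodes fibrillarin, the methyltransferase, and was at 88.8 and 94.0 CPM in wild-type and 69.4 and 67.0 CPM in TNFR2 KO. Nop58 and Nop56 form the scaffold that holds the guide RNA. Nop58 was at 106 and 107 CPM in wild-type and 86.6 and 83.6 CPM in TNFR2 KO. Nop56 was at 134 and 143 CPM in wild-type and 116 and 121 CPM in TNFR2 KO. The log2-fold changes were -0.42 (SE 0.04), -0.32 (SE 0.04) and -0.23 (SE 0.04) for Fbl, Nop58 and Nop56. Whether the 3 differed from each other was not tested. Transcripts of Fbl and Nop56 share 21.8% and 22.4% of their 31-base stretches with other genes.

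The box H/ACA snoRNP converts uridines of rRNA to pseudouridine, and 3 of its 4 core proteins passed. Dkc1 encodes dyskerin, the pseudouridine synthase, and was at 72.7 and 71.0 CPM in wild-type and 56.6 and 59.5 CPM in TNFR2 KO, with a log2-fold change of -0.31 (SE 0.04). Gar1, which helps the complex bind and release its substrate, was at 26.6 and 29.8 CPM in wild-type and 22.1 and 20.4 CPM in TNFR2 KO, with a log2-fold change of -0.41 (SE 0.07). Nhp2, an RNA-binding core protein, was at 50.6 and 55.6 CPM in wild-type and 45.8 and 44.9 CPM in TNFR2 KO, with a log2-fold change of -0.23 (SE 0.05). The remaining core protein, Nop10, was at 27.0 and 28.5 CPM in wild-type and 26.7 and 27.5 CPM in TNFR2 KO, with overlapping groups and a log2-fold change of -0.04 (95% interval -0.16 to 0.09).

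**Figure D2:**
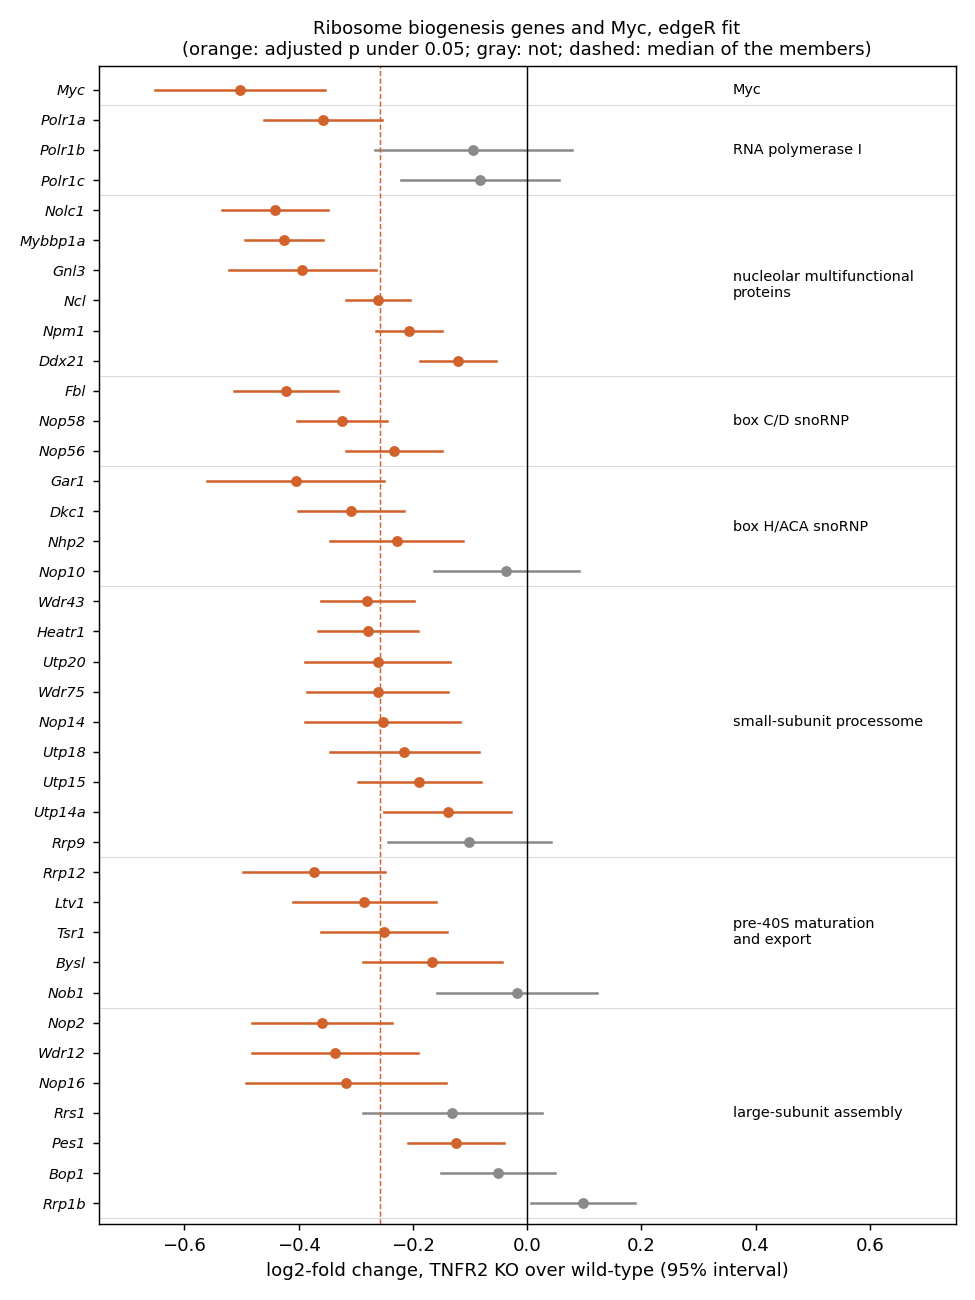
Log2-fold change of each member, TNFR2 KO over wild-type, with its 95% interval from the edgeR fit, grouped by role. Orange members passed an adjusted p under 0.05 (30 of 38, all lower) and gray ones did not (8), and the dashed line is the members' median of -0.26.

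The small-subunit processome is the large particle that forms on the 5′ part of pre-rRNA and frees the 18S rRNA precursor, and 8 of its 9 measured proteins were lower. DESeq2 called 5 of the 9, without Utp18 (adjusted p 0.0808), Utp15 (0.107) and Utp14a (0.284). Among the proteins that join during transcription, Heatr1 was at 81.9 and 79.6 CPM in wild-type and 67.8 and 65.2 CPM in TNFR2 KO. Wdr43 was at 81.4 and 81.9 CPM in wild-type and 67.4 and 67.2 CPM in TNFR2 KO. These 2 fell by nearly the same share, 17.6% each. Wdr75 was at 38.1 and 38.5 CPM in wild-type and 30.6 and 33.4 CPM in TNFR2 KO. Utp15 was at 41.9 and 40.8 CPM in wild-type and 36.1 and 36.6 CPM in TNFR2 KO. The 4 log2-fold changes lay between -0.28 and -0.19. Both TNFR2 KO libraries were below both wild-type libraries in each.

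The remaining processome proteins of the set had log2-fold changes of -0.26 to -0.10. Utp20 was at 33.9 and 35.7 CPM in wild-type and 28.1 and 30.1 CPM in TNFR2 KO. Nop14 was at 36.0 and 37.1 CPM in wild-type and 32.4 and 28.8 CPM in TNFR2 KO. Utp18 was at 37.9 and 42.2 CPM in wild-type and 35.1 and 33.9 CPM in TNFR2 KO. None of these 3 had overlapping groups, and their log2-fold changes were -0.26, -0.25 and -0.21. Utp14a, which activates the helicase Dhx37 in taking the particle apart, was at 40.5 and 39.6 CPM in wild-type and 37.2 and 35.5 CPM in TNFR2 KO and had the smallest change called in this group, a log2-fold change of -0.14 (SE 0.05, adjusted p 0.0384 in edgeR's test). Rrp9, a protein of the U3 snoRNP, was at 33.8 and 32.3 CPM in wild-type and 29.0 and 32.8 CPM in TNFR2 KO. TNFR2 KO replicate 2 lay within the wild-type values for Rrp9, and its log2-fold change was -0.10 (95% interval -0.24 to 0.04).

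Of the proteins that mature pre-40S particles or carry them out of the nucleus, 4 of 5 were lower, and DESeq2 called 3, without Bysl (adjusted p 0.189). Rrp12, a HEAT-repeat protein needed for export of both subunits, was at 29.6 and 29.3 CPM in wild-type and 23.1 and 22.4 CPM in TNFR2 KO, with a log2-fold change of -0.37 (SE 0.06). Ltv1, a pre-40S factor that must leave before translation, was at 31.4 and 33.1 CPM in wild-type and 27.0 and 25.9 CPM in TNFR2 KO, with a log2-fold change of -0.28. Tsr1, which blocks the site where a translation GTPase would bind, was at 55.5 and 53.5 CPM in wild-type and 47.5 and 44.0 CPM in TNFR2 KO, with a log2-fold change of -0.25, and shares 33.2% of its 31-base stretches with other genes, mostly the overlapping gene Srr. Bysl, or bystin, was at 42.6 and 39.6 CPM in wild-type and 37.7 and 35.6 CPM in TNFR2 KO, with a log2-fold change of -0.17 (SE 0.06, adjusted p 0.0266 in edgeR's test). Nob1, the endonuclease that makes the final cut of 18S rRNA, was at 24.2 and 26.3 CPM in wild-type and 24.3 and 25.6 CPM in TNFR2 KO, with overlapping groups and a log2-fold change of -0.02 (95% interval -0.16 to 0.12).

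The large-subunit group was mixed, with 4 of 7 lower. DESeq2 called 2 of the 7, without Nop16 (adjusted p 0.0684) and Pes1 (0.167). Nop2, which methylates a cytosine of 28S rRNA, was at 45.6 and 47.3 CPM in wild-type and 34.6 and 38.02 CPM in TNFR2 KO, with a log2-fold change of -0.36 (SE 0.06). Nop16, a nucleolar protein of early 60S particles, was at 18.7 and 17.9 CPM in wild-type and 15.3 and 14.1 CPM in TNFR2 KO, with a log2-fold change of -0.32 (SE 0.08). Rrs1, which helps bring in the 5S rRNA particle, was at 31.9 and 33.7 CPM in wild-type and 32.2 and 27.5 CPM in TNFR2 KO. Its groups overlapped, with a log2-fold change of -0.13 (95% interval -0.29 to 0.03).

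Pes1, Bop1 and Wdr12 work as one trimeric complex, named PeBoW after its subunits, that is needed to process the 28S precursor. Wdr12 was at 29.1 and 29.6 CPM in wild-type and 21.9 and 24.7 CPM in TNFR2 KO, and its log2-fold change was -0.34 (SE 0.07, adjusted p 0.00115 in edgeR's test). Pes1 was at 76.9 and 75.1 CPM in wild-type and 70.2 and 69.2 CPM in TNFR2 KO, with a log2-fold change of -0.12 (SE 0.04, adjusted p 0.0173 in edgeR's test), and shares 34.9% of its 31-base stretches with other genes, chiefly the locus Gm5910. Bop1 was at 89.9 and 94.9 CPM in wild-type and 85.5 and 93.0 CPM in TNFR2 KO, with overlapping groups and a log2-fold change of -0.05 (95% interval -0.15 to 0.05). The interval of Wdr12 (-0.48 to -0.19) did not meet that of Bop1, but a difference between the subunits was not tested. Rrp1b, a nucleolar partner of protein phosphatase 1, was at 55.5 and 54.5 CPM in wild-type and 59.3 and 58.5 CPM in TNFR2 KO. Its log2-fold change was 0.10 (95% interval 0.01 to 0.19, adjusted p 0.0703 in edgeR's test), and it turned to -0.77 when libraries were scaled on NK cell markers, under which the median of all genes was -0.87.

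Beside their own products, 7 members carry genes of snoRNAs inside their gene bodies, 21 in all by the GENCODE annotation. Nop56 holds 5, Nop58 holds 4, Ncl, Gnl3 and Wdr43 hold 3 each, Tsr1 holds 2 and Dkc1 holds 1. All 7 hosts were lower in TNFR2 KO, as were 30 of all 38 members and 26.2% of all genes tested. Their log2-fold changes ran from -0.39 for Gnl3 to -0.23 for Nop56. The snoRNAs themselves are short and lack a poly-A tail, and their levels were not examined. The members lie on 16 chromosomes.

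The E-box CACGTG, which reads the same on both strands, was searched in promoter windows of 300 bases (250 before the RefSeq start to 50 after it), since Myc with Max is known to bind it. Of the members, 32 matched a window by symbol, and 8 of these (25.0%) held the motif. The share was 17.5% among 97 matched other ribosome biogenesis genes, 37.5% among 24 matched Myc targets outside the ribosome, 11.3% among 10238 matched genes tested and 8.09% among all 27025 genes of the table. All 8 members with the motif were lower, and so were 18 of the 24 without it. Of all 38 members 30 were lower, and of all genes tested 26.2%. The share lower among all tested genes with the motif was not computed, and a link between motif and level was not tested. A match describes the letters only, and binding was not measured. The sites are given 5′ to 3′ on the strand of the gene from RefSeq's windows on GRCm38.p6. Up to 12 bases are shown on each side, with the E-box in capitals, and these flanks were not compared.
Mybbp1a (chr11:72441355-72441376, plus strand): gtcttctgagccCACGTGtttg
Wdr43 (chr17:71616220-71616249, plus strand): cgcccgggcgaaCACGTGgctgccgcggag
Nop2 (chr6:125131811-125131840, plus strand): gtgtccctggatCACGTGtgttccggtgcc
Ltv1 (chr10:13193092-13193121, minus strand): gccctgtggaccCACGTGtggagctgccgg
Tsr1 (chr11:74898092-74898121, plus strand): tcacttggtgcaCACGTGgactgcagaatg
Utp20 (chr10:88826765-88826789, minus strand): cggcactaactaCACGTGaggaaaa
Utp18 (chr11:93885769-93885798, minus strand): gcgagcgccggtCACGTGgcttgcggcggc
Pes1 (chr11:3963965-3963994, plus strand): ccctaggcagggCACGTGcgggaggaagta
Only the motifs of Nop2 and Utp18 lay before the start, 60 and 20 bases upstream by their first base, and the other 6 lay after it. The 250 bases before the start of Nop2, at chr6:125131633-125131882 on the plus strand, are shown because Nop2 had the smaller adjusted p of these 2.
Nop2 upstream: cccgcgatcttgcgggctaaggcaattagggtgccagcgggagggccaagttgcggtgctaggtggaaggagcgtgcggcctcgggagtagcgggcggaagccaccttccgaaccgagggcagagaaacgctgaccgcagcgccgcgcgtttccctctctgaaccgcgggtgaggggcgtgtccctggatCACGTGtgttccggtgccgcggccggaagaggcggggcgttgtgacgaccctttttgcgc

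Not all of the wider pathway followed the members. Lists of further genes of ribosome biogenesis held 115 tested genes, of which 39 were lower, 11 were higher and 65 did not pass, and their median log2-fold change was -0.09. DESeq2 gave 22 lower and 7 higher. Scaling the libraries on NK cell markers shifted every gene down, to a median of -0.87 over all genes, with 88.4% of all genes then lower and 0.796% higher, and under it all 115 were lower.

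The remaining RNA polymerase I machinery gave no lower call. Of 12 genes, 0 were lower and 4 were higher, with a median log2-fold change of 0.09, and without the adjustment 1 was lower at p under 0.05, Cd3eap. DESeq2 also gave 0 lower and 4 higher. Ubtf, the factor that marks and opens rRNA genes, was at 194 and 194 CPM in wild-type and 215 and 212 CPM in TNFR2 KO and rose by a log2-fold change of 0.14. Ttf1, which ends transcription by RNA polymerase I, was at 38.4 and 37.2 CPM in wild-type and 44.6 and 44.0 CPM in TNFR2 KO, with a log2-fold change of 0.23. Polr1d, a further subunit shared with RNA polymerase III, was at 107 and 112 CPM in wild-type and 122 and 122 CPM in TNFR2 KO, with a log2-fold change of 0.15. Under scaling on NK cell markers these 3 were lower, at -0.73, -0.64 and -0.71, against -0.87 for the median of all genes.

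Small-subunit factors outside the set gave 11 lower and 3 higher of 34, against 26.2% and 24.2% of all genes. DESeq2 gave 7 lower and 1 higher. The lower ones of smallest adjusted p were Noc4l, Pno1 and Wdr46. Noc4l, a partner of Nop14, was at 55.9 and 56.8 CPM in wild-type and 41.1 and 44.8 CPM in TNFR2 KO. Pno1, which holds the 3′ end of the 18S precursor, was at 34.6 and 35.2 CPM in wild-type and 27.4 and 26.9 CPM in TNFR2 KO. Wdr46, a processome protein, was at 28.7 and 32.0 CPM in wild-type and 23.0 and 21.2 CPM in TNFR2 KO. No groups overlapped for these 3, with log2-fold changes of -0.40, -0.36 and -0.45. Riok1, a kinase of late 40S maturation, was at 70.0 and 68.7 CPM in wild-type and 79.2 and 76.9 CPM in TNFR2 KO. The U3 protein Imp3 was at 32.5 and 32.5 CPM in wild-type and 37.5 and 36.6 CPM in TNFR2 KO. Nol7 was at 89.7 and 92.5 CPM in wild-type and 100.5 and 96.0 CPM in TNFR2 KO. These 3 were the higher ones, with log2-fold changes of 0.17, 0.19 and 0.11. DESeq2 did not call Imp3 (adjusted p 0.104) or Nol7 (0.134), and scaling on NK cell markers turned the 3 to -0.70, -0.68 and -0.76.

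Large-subunit factors outside the set gave 22 lower and 3 higher of 48, against 26.2% and 24.2% of all genes. DESeq2 gave 11 lower and 2 higher. Sdad1, a protein of 60S assembly, was at 40.9 and 41.0 CPM in wild-type and 29.7 and 27.8 CPM in TNFR2 KO, with a log2-fold change of -0.51, close to that of Myc. Pelp1, a scaffold of the complex that releases late 60S particles, was at 53.3 and 52.7 CPM in wild-type and 40.5 and 40.7 CPM in TNFR2 KO. Noc2l, known also as an inhibitor of histone acetylation, was at 112 and 117 CPM in wild-type and 92.0 and 94.3 CPM in TNFR2 KO. Both were lower, with log2-fold changes of -0.38 and -0.29. Nop53, which brings the RNA exosome to the 60S precursor, went the other way. It was at 212 and 226 CPM in wild-type and 289.7 and 280.1 CPM in TNFR2 KO, and rose by a log2-fold change of 0.38 (SE 0.03, adjusted p 1.33e-06 in edgeR's test). Nsa2 and Pak1ip1 were higher by log2-fold changes of 0.16 and 0.13, and DESeq2 did not call Pak1ip1 (adjusted p 0.217). Scaling on NK cell markers turned Nop53, Nsa2 and Pak1ip1 to -0.49, -0.71 and -0.74.

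Proteins that assemble snoRNPs gave 4 lower and 1 higher of 8, against 26.2% and 24.2% of all genes. DESeq2 gave 3 lower and 0 higher. Naf1, which occupies the place of Gar1 while H/ACA particles are built, was at 12.9 and 13.0 CPM in wild-type and 7.14 and 6.31 CPM in TNFR2 KO, and its log2-fold change of -0.94 (SE 0.11, adjusted p 1.54e-05 in edgeR's test) exceeded that of every member in size. The helicases Ruvbl2 and Ruvbl1, which work in the assembly of box C/D particles and in other complexes, were lower by log2-fold changes of -0.36 and -0.28. Pih1d1, a subunit of the R2TP complex with these helicases, was at 38.9 and 40.1 CPM in wild-type and 43.0 and 44.0 CPM in TNFR2 KO, with a log2-fold change of 0.14 that DESeq2 did not call (adjusted p 0.207) and that became -0.73 with scaling on NK cell markers. The RNA exosome, which trims and degrades rRNA precursors, gave 2 lower and 0 higher of 13, beside the same shares over all genes. With an unadjusted p under 0.05 it gave 3 lower and 0 higher, and DESeq2 gave 1 lower and 0 higher. The nuclease Dis3 was at 43.5 and 40.7 CPM in wild-type and 36.2 and 35.7 CPM in TNFR2 KO. Exosc7 was at 21.7 and 21.5 CPM in wild-type and 19.4 and 17.7 CPM in TNFR2 KO, and DESeq2 did not call it (adjusted p 0.199). The exosome gene Exosc6 was at 0 counts in all 4 libraries and was not tested.

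**Figure D3:**
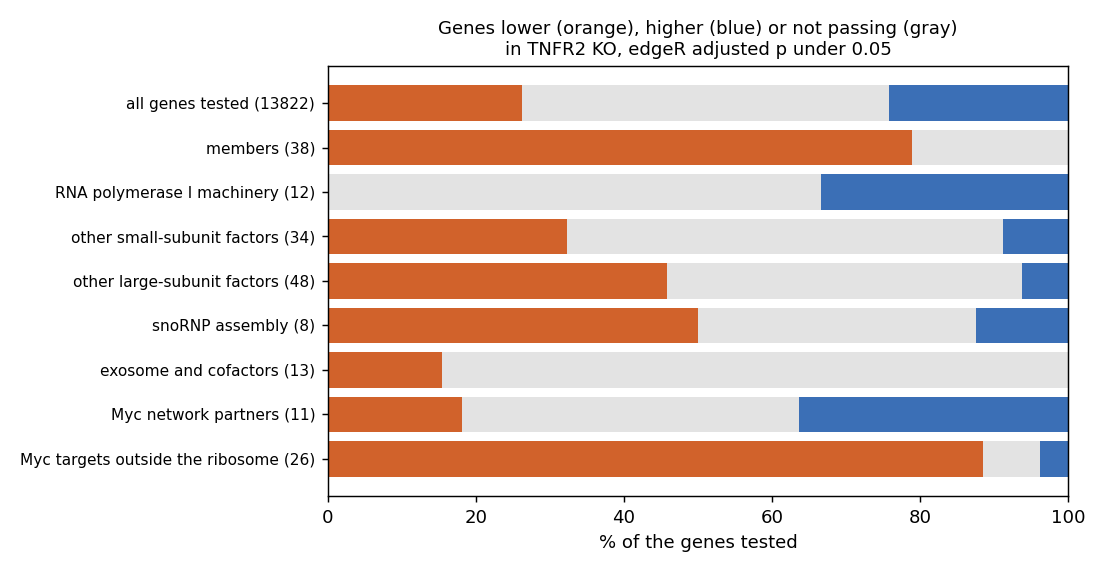
Share of the tested genes of each list, number tested in brackets, that were lower (orange), higher (blue) or not past an adjusted p under 0.05 (gray) in TNFR2 KO. The members have 30 of 38 lower and the Myc targets outside the ribosome 23 of 26, while the RNA polymerase I machinery has 0 of 12 lower and all genes 3624 of 13822.

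Genes of the network that Myc shares with Max gave 2 lower and 4 higher of 11, against 26.2% and 24.2% of all genes. DESeq2 gave 1 lower and 3 higher. Max, the partner of Myc, was at 99.5 and 105 CPM in wild-type and 98.0 and 94.2 CPM in TNFR2 KO, with a log2-fold change of -0.09 that did not pass (adjusted p 0.0754 in edgeR's test). Mxi1, which pairs with Max and opposes Myc, was at 12.6 and 13.0 CPM in wild-type and 10.1 and 8.93 CPM in TNFR2 KO, and fell by a log2-fold change of 0.43. Mxd4, another such antagonist, was at 76.5 and 74.1 CPM in wild-type and 130.1 and 134 CPM in TNFR2 KO, and rose by a log2-fold change of 0.81 (SE 0.04, adjusted p 1.78e-09). Mlxip, the glucose sensor MondoA, and Mnt, a further repressor that pairs with Max, were higher by log2-fold changes of 0.25 and 0.22. Scaled on NK cell markers, Mxd4, Mlxip and Mnt were at -0.059, -0.62 and -0.65. Mycl was under 1 CPM in every library, and its call (log2-fold change -2.28) was lost with DESeq2 (adjusted p 0.184).

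Known targets of Myc outside the ribosome gave counts like those of the members, with 23 of 26 lower, 1 higher and a median log2-fold change of -0.26, and DESeq2 gave 19 lower and 1 higher. Hspd1, a mitochondrial chaperonin, was at 269.6 and 274 CPM in wild-type and 211 and 215 CPM in TNFR2 KO, with a log2-fold change of -0.35 (SE 0.03). Eif4a1, the helicase of translation initiation, was at 575 and 554 CPM in wild-type and 452 and 449.8 CPM in TNFR2 KO, with a log2-fold change of -0.32 (SE 0.03). Nampt, which makes a precursor of NAD, was at 168 and 156 CPM in wild-type and 60.9 and 58.9 CPM in TNFR2 KO, with a log2-fold change of -1.44 (SE 0.04), and was the only one of the 26 past both thresholds. Ccnd2, or cyclin D2, was at 228 and 226 CPM in wild-type and 252 and 251 CPM in TNFR2 KO, with a log2-fold change of 0.15 that became -0.72 with scaling on NK cell markers. The list was chosen with earlier results of these data known, so its count is a description.

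Markers of other cells moved with genotype, and each result above stands beside that shift. Of the 33 NK cell markers, 32 were higher in TNFR2 KO (Cd226 was lower), and their sum was 19331 to 19440 CPM in wild-type and 35202 to 35559 CPM in TNFR2 KO. Macrophage or monocyte markers were lower in 19 of 20 and summed to 3151 to 3191 CPM in wild-type and 1046 to 1066 CPM in TNFR2 KO. The exception was Ccr2, at 404 and 384 CPM in wild-type and 687 and 670 CPM in TNFR2 KO. Ccr2 alone made up most of the TNFR2 KO sum. Neutrophil or granulocyte precursor markers were lower in 15 of 15 tested, from 983 to 1004 CPM down to 89.9 to 94.2 CPM. Markers of mast cells or basophils were lower in 10 of 11, from 1277 to 1281 CPM down to 103 CPM in both libraries. The exception was Cma1, at 21.9 and 23.1 CPM in wild-type and 71.9 and 73.3 CPM in TNFR2 KO. Cma1 alone made up most of the TNFR2 KO sum. Erythroid markers were lower in 10 of 10, from 282 to 287 CPM down to 58.9 to 62.8 CPM.

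Dendritic cell or class II markers were lower in 6 of 12 and higher in 1, Itgax, with a median log2-fold change of -1.94. Their sum was 2142 to 2170 CPM in wild-type and 1035 to 1059 CPM in TNFR2 KO, of which Itgax alone made up 409 to 419 CPM and 882 to 908 CPM. Without Itgax the sum was 1723 to 1761 CPM in wild-type and 151 to 152 CPM in TNFR2 KO. The class II genes Cd74, H2-Aa, H2-Ab1 and H2-Eb1 had log2-fold changes of -3.66 to -3.49. T cell markers were lower in 6 of 7 (934 to 940 CPM against 778 to 787 CPM). Megakaryocyte or platelet markers were lower in 5 of 6 and stromal or endothelial ones in 3 of 5, at sums of 40.2 CPM or less. No tested marker of these lists was at 0 in both TNFR2 KO libraries. Ribosome biogenesis genes and Myc are used by every dividing cell, and the part of these other cells in the members' lower values was not tested.

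**Figure D4:**
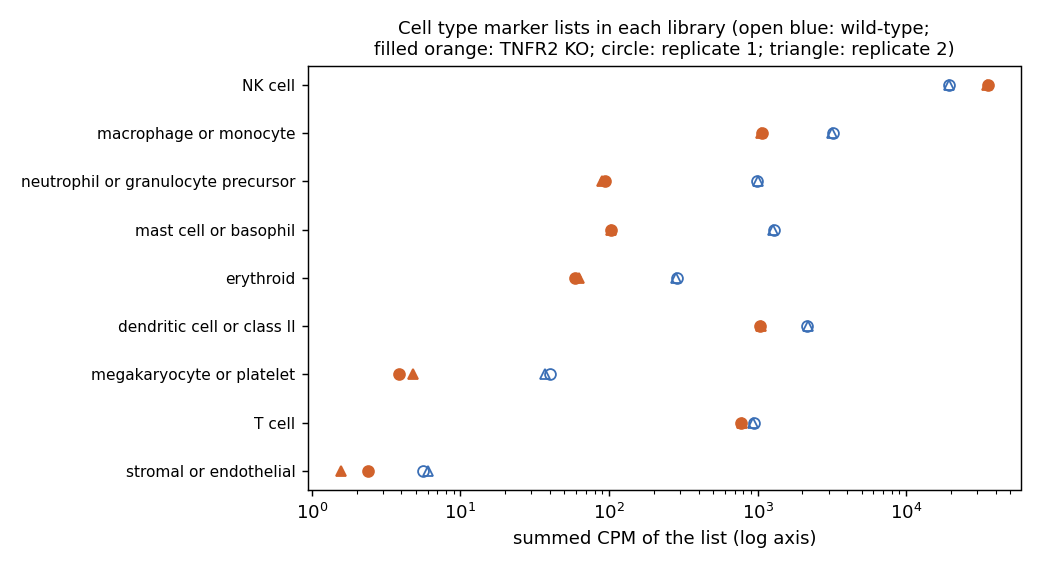
Summed CPM of each cell type marker list described in the text, in each library, on a log axis. NK cell markers are higher in both TNFR2 KO libraries (filled) than in both wild-type libraries (open), while macrophage, neutrophil, mast cell and erythroid markers are lower.

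Because NK cell markers made up a larger part of the TNFR2 KO libraries, the scale on which levels are compared matters to the members. Scaling on NK cell markers used their summed counts, in which Gzma and Gzmb weighed most. Their means were 5805 and 3876 CPM in wild-type, and 12263 and 6540 CPM in TNFR2 KO. Log2-fold changes of the 33 markers ran from -0.39 for Cd226 to 1.56 for Styk1. Whether genotype changed these markers within NK cells was not tested. With libraries scaled on the 33 NK cell markers in place of TMM, the median of all genes moved to -0.87 and that of the members to -1.13, all 38 members were lower, and 28 passed both thresholds. Over all genes, 88.4% were lower and 33.8% passed both thresholds under this scaling. A change of scaling shifts all genes by about the same amount, so the gap between both medians, 0.25 under TMM, is kept by construction. Over the 8 alternatives that change the test, the filter, the block or the libraries used, that gap was 0.24 to 0.29, and 35 to 37 of the 38 members lay below the median of all genes.

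**Figure D5:**
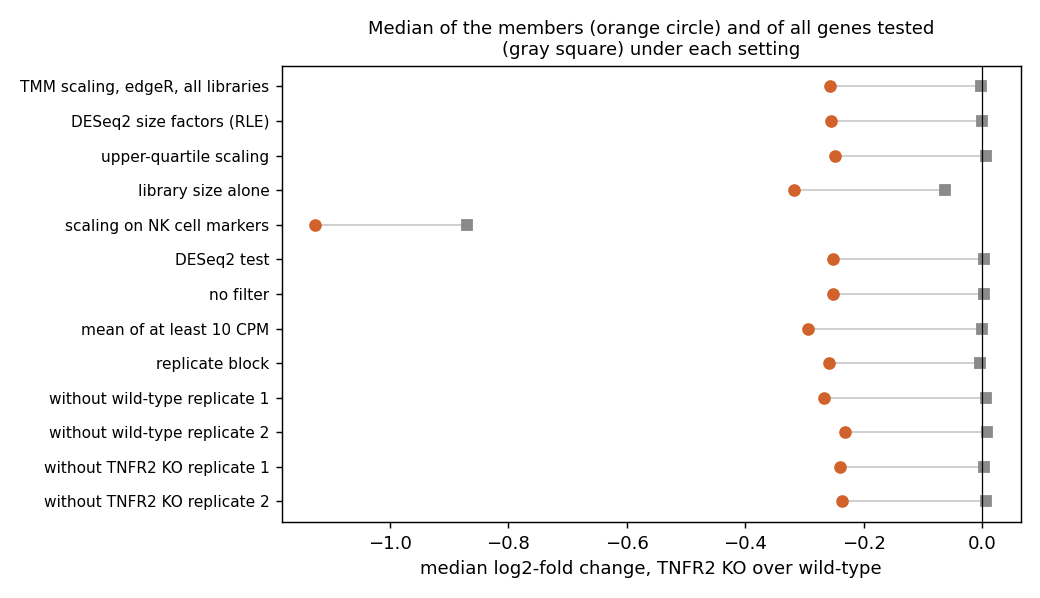
Median log2-fold change of the 38 members (orange circles) and of all genes tested (gray squares), under the fit reported and under each alternative. Scaling on NK cell markers moves both medians down, to -1.13 and -0.87, with the gap between them kept by construction.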

How the data were processed

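Per the labels and the study's methods, the authors sequenced stranded, poly-A selected, paired-end libraries, trimmed reads with Trimmomatic (1.4 in the submitters' processing notes), assigned them to mm10 transcripts with kallisto 0.46.1 and summed them per gene with Tximport. The values the authors deposited are estimated counts (expected counts) per gene symbol, not scaled between libraries. The transcript annotation and kallisto's strand setting are not given in the sources used here, and exons of 17 members overlap exons of a gene on the other strand. A row without a gene name (0.0559% to 0.0728% of counts) was left out.

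Counts were rounded, filtered with filterByExpr, scaled with TMM and tested with edgeR 4.0.16 (quasi-likelihood test, R 4.3.3), on genotype alone, with Benjamini-Hochberg adjustment over 13822 genes. The steps were tested on simulated data. Thresholds were an adjusted p of 0.05 and, as in the study, an absolute log2-fold change of 1, with -0.5 as a further one. The replicate pairs within each genotype differed beyond counting noise. By the labels, libraries sharing a replicate number were sorted from one pool of spleens, which pairs them, and the deviations of paired libraries correlated at 0.049 across genes. The study describes a single experiment done in duplicate. The p-values therefore rest on the spread between libraries of that experiment, which may be partly technical, and not on separate experiments.

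Members and gene lists were chosen with earlier results of these data known. The text names all members, Tnfrsf1b and, for each pathway list, up to 3 called genes of smallest adjusted p in each direction. Cd3eap, Exosc6, Max, Cd226, Gzma, Gzmb, Styk1, Ccr2, Cma1, Itgax, Cd3g, the class II genes and the upstream stretch of Nop2 were added after their values were seen. Promoter windows come from RefSeq (GRCm38.p6), and positions, hosted snoRNA genes and shared 31-base stretches from GENCODE on GRCm38, the build named mm10 by the authors. The members' proteins are not shown here, and 1 marker list is not reported here.

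Tried as alternatives were scaling by NK cell markers, by library size alone, by the upper quartile or by DESeq2's size factors, the test of DESeq2 1.42.0, no filter or one at a mean of 10 CPM, a replicate block, and leaving out each library. Plots used matplotlib 3.10.9.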

Additional observations from a re-analysis of the deposited data

How the results depend on the processing

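Lower calls among the members numbered 24 (DESeq2) to 38 (scaling on NK cell markers) over the 12 alternatives, and higher calls 0 in each. Over all genes, 14.9% were lower with DESeq2 and 88.4% with scaling on NK cell markers, the lowest and highest share over the alternatives, and 0.796% to 28.3% were higher. DESeq2 did not call Bysl, Nop16, Pes1, Utp14a, Utp15 and Utp18, and gave 22 lower and 7 higher of the other ribosome biogenesis genes. Library size alone moved the members' median to -0.32 and left 7 of those genes higher. Scaling on NK cell markers gave a members' median of -1.13, 28 members past both thresholds, 115 other ribosome biogenesis genes lower and 0 higher, and 0 Myc network and target genes higher, where 88.4% of all genes were lower, 0.796% higher and 33.8% past both thresholds. It turned Rrp1b to -0.77, Ubtf -0.73, Ttf1 -0.64, Polr1d -0.71, Riok1 -0.70, Imp3 -0.68, Nol7 -0.76, Nop53 -0.49, Nsa2 -0.71, Pak1ip1 -0.74, Pih1d1 -0.73, Mxd4 -0.059, Mlxip -0.62, Mnt -0.65 and Ccnd2 -0.72, each still above the all-gene median of -0.87. The replicate block called 30 members lower, as without it, and changed no other call among the results given.

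With 1 library left out, 25 to 31 members were lower, and Myc stayed called, at -0.58 to -0.40. The lone library of a group was assumed to vary like the other group. Without wild-type replicate 1, Ddx21 (adjusted p 0.101), Utp15 (0.053), Utp14a (0.184), Bysl (0.236) and Pes1 (0.141) lost their calls. Without wild-type replicate 2, Nhp2 (0.0511), Utp18 (0.134) and Utp14a (0.0821) did, and without TNFR2 KO replicate 2, Bysl (0.139), Pes1 (0.0689) and Utp14a (0.219). Without TNFR2 KO replicate 1, Rrs1 passed at -0.24, and without TNFR2 KO replicate 2, Rrp9 passed at -0.19. Members that did not pass changed sign in these ranges: Nop10 -0.0672 to 0.0119, Nob1 -0.0673 to 0.0509, Rrp9 -0.19 to 0.00018 and Bop1 -0.11 to 0.021. The cause of these shifts was not tested. Rrs1 also passed with library size alone (-0.19) and with a mean of at least 10 CPM (-0.17). Members were at 14.1 CPM or more in every library.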
